A study of Homo sapiens with 19 samples.

Results

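The genes described are TNFRSF11B, which encodes the secreted decoy receptor osteoprotegerin (OPG), and 7 genes known from osteoclasts: TNFRSF11A, NFATC1, OSCAR, ACP5, CTSK, ATP6V0D2 and SPP1. These 8 genes, measured by 12 probes, are a small set out of 31033 gene names and 50238 probes on the array, and every one was found by its gene name among the probes that are not controls. They were selected on their own levels in these arrays, so those levels and the differences between groups are given as a description, with no p-value beside them. Counts of members past a threshold are set beside those of all genes, and no support is drawn from levels, differences or counts. The cells were THP-1, a human monocytic leukaemia line, turned into macrophage-like cells with 30 nM phorbol myristate acetate (PMA) in every group, the untreated one included. After a rest, vit C was added at 0.1 mM to the treated flasks and left out of the untreated (UT) flasks, and both were harvested 8, 24, 48 and 96 h later. UT cells were measured on 2, 3, 2 and 3 arrays at these times and vit C-treated cells on 3, 2, 2 and 2, each array holding RNA of a separate flask of the 1 cell line. No stromal cell, osteoblast or RANK ligand was added to the cultures as far as the labels and methods say.

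Osteoclasts form from cells of the monocyte and macrophage lineage when RANK ligand binds its receptor RANK, the product of TNFRSF11A, on the precursor. OPG binds the same ligand outside the cell and keeps it from RANK, and in bone it is known chiefly as a product of osteoblasts and stromal cells. RANK signals through TRAF adaptors and NF-kB to the transcription factor NFATc1, with co-stimulation from immunoglobulin-like receptors such as OSCAR, and NFATc1 switches on the genes of fusion and of bone resorption. Among those are the phosphatase ACP5, the protease CTSK and the proton pump subunit ATP6V0D2, while SPP1 encodes osteopontin, a matrix protein that binds integrins and that macrophages also secrete.

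The signal of a probe is given as its normalized log2 signal, the log2 of the processed intensity minus the 75th percentile of that array, so that 0 is the level of the probe at that percentile. A difference of 1 on this scale is a doubling. The 75th percentile itself lay between 296.8 and 923.7 intensity units, with the highest values on the vit C 96 h arrays, and the scanner software set 57.5% to 72.8% of an array's probes well above background. Because levels of different probes cannot be set against each other, each gene is compared with itself across groups, and a sum over marker genes is used only to compare arrays, leaning on its brightest probes. The arrays lay on 4 slides and none of these held UT and vit C-treated arrays of the same time point, so no comparison could be made within a slide. At 8, 24 and 48 h all UT arrays lay on 1 slide and all vit C-treated arrays on others. Treatment and slide are parted at those times only through the UT 96 h arrays, the 1 UT group on more than 1 slide. A fit with the slide as a fixed term thus carries the spread of these UT 96 h arrays. At 96 h the vit C-treated arrays had a slide and a scan of their own, and treatment and slide cannot be told apart there. RNA of bulk cultures does not tell fewer expressing cells from less RNA per cell.

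The probes decide which transcripts are read. They are shown for TNFRSF11A, NFATC1, OSCAR, ACP5, CTSK and SPP1, and not for TNFRSF11B and ATP6V0D2. All are 60 bases long and the array's annotation lists them as unmapped, so that no genome position is given. The first 30 bases are shown for 6 probes and all 60 for the probe of SPP1 and the dimmer probe of NFATC1.
TNFRSF11A: tgtgtcgttccttaagcagaactaagctca
ACP5: tttgctgagttccggggtgcaatgggggag
CTSK: accctagaggactagggtaatctgacttct
SPP1: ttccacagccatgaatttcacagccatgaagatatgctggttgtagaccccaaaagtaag
NFATC1, brighter probe: agcctttctcaggggactgtcattgaaaag
NFATC1, dimmer probe: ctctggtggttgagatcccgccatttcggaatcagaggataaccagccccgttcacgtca
OSCAR, brighter probe: gggacctggagaacttttctgtcttacaag
OSCAR, dimmer probe: aacccgcttggagatttggacttttcaagc

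The annotation assigns the brighter NFATC1 probe to 4 RefSeq transcripts and the dimmer one to 1 other transcript, so the pair reads different transcripts of the gene according to the array's design. The brighter OSCAR probe is assigned to 4 RefSeq transcripts and the dimmer one to 3, all of which are among the 4. Both TNFRSF11B probes are assigned to the same transcript, as are both ATP6V0D2 probes.

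TNFRSF11B had 1 level that stood apart from all others, that of UT cells at 48 h. On its brighter probe, UT arrays read -3.60 and -2.84 at 8 h, -2.94, -2.69 and -4.00 at 24 h, 0.06 and 0.18 at 48 h, and -2.77, -2.93 and -2.35 at 96 h. Vit C-treated arrays read -3.81, -3.52 and -4.15 at 8 h, -5.00 and -4.22 at 24 h, -3.23 and -3.47 at 48 h, and -2.36 and -2.41 at 96 h. Both UT 48 h arrays thus lay above every other array, the highest of which was -2.35, and no vit C-treated group had such a level at any time. In order, the group means ran from UT 48 h (0.12 ± 0.08, SD, n = 2) through vit C 96 h, UT 96 h, UT 24 h, UT 8 h and vit C 48 h, neighbours that overlapped each other, to vit C 8 h and vit C 24 h (-4.61 ± 0.55, SD, n = 2).

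The difference of vit C-treated from UT cells was -0.60 ± 0.37 (SE) at 8 h and -1.40 ± 0.37 at 24 h on the log2 scale. At 48 h it was -3.46 ± 0.41, an 11-fold lower signal in vit C-treated cells. At 96 h it was 0.30 ± 0.37 and the arrays of both groups overlapped, as they did at 8 h. At 24 h and 48 h every vit C-treated array was below every UT array.

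The dimmer TNFRSF11B probe ran in parallel, with r = 0.92 between both probes over the 19 arrays, which share their hybridizations. It read -0.99 and -0.83 on the UT 48 h arrays and -3.62 and -3.89 on the vit C 48 h arrays. That is a difference of -2.85 ± 0.59 (SE), or 7.21-fold. UT 48 h was again above all other groups without overlap. At 24 h neither vit C-treated array was well above background on this probe, and the signal was at least 2.34-fold lower than in UT cells.

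**Figure D1:**
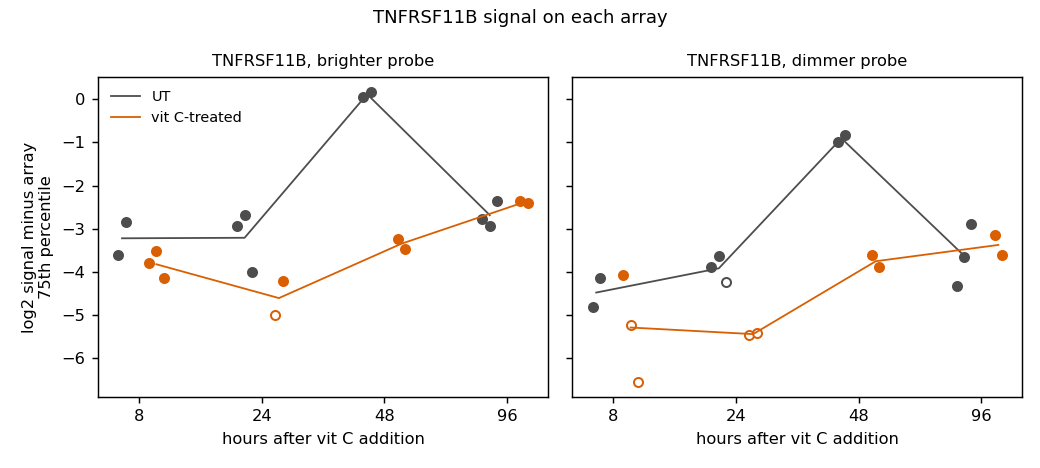
Normalized log2 signal of TNFRSF11B (vertical axis, log2 signal minus the 75th percentile of the array) against hours after vit C addition for the brighter probe on the left and the dimmer probe on the right. Each point is 1 array, open where the spot was not well above background, and lines join group means: the UT points at 48 h, 0.06 and 0.18 on the brighter probe, stand above all others.

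Both UT 48 h arrays shared a slide with the UT arrays of 8 h, of 24 h and with UT 96 h replicate 1, which read between -4.00 and -2.69 on the brighter probe. With the slide as a fixed term in the fit, the difference at 48 h was -3.48, but no member then passed the test over all genes at 48 h. That slide term rests on the UT 96 h arrays, and vit C 48 h replicate 2, alone on its slide, adds nothing to the difference. Background correction by another method (normexp) gave -2.16 at 48 h, a value smaller by over 1 log2 unit, and turned the small difference at 96 h to -0.25.

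OPG being known from stromal cells, a list of osteoblast and stromal markers was looked at beside it. Of 10 such markers on the array, RUNX2 and BGLAP were well above background on all 19 arrays and SP7 and COL1A2 on none. The linear signals of the list, summed in units of the 75th percentile, came to 1.33 to 1.38 on the UT 48 h arrays and to 1.92 to 2.02 on the vit C 48 h arrays. Without RUNX2, its brightest probe on average, the sums at 48 h overlapped, at 0.55 to 0.65 in UT and 0.48 to 0.61 in vit C-treated cells. Of 10 macrophage markers, 8 were well above background on every array and MRC1 on none, with sums of 85.5 to 88.8 in UT and 106.5 to 115.7 in vit C-treated cells at 48 h. Taken singly, 5 of these 10 had a difference above 0 at 48 h and 5 below. Of 10 osteoclast markers, 8 were well above background on every array and CALCR, the calcitonin receptor that defines mature osteoclasts, on none. The sums of this list, which holds ACP5 and CTSK, were 714 to 725 in UT and 433.8 to 479.5 in vit C-treated cells at 48 h, and 224 to 302.2 against 185.2 to 213.5 at 96 h. Without the protease gene MMP9, its brightest probe on average, the sums were 128.7 to 142.2 in UT and 83.4 to 88.9 in vit C-treated cells at 48 h, and they overlapped at 96 h, at 41.8 to 58.1 and 49.6 to 54.3. Of the 10 markers 8 had a difference below 0 at 48 h and 7 at 96 h, ACP5 and CTSK being above 0 at both times. The part of these lists in the TNFRSF11B values was not tested.

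By the likeness of its pattern, TNFRSF11B was nearest to RAB3B (Pearson's r = 0.88), PCDH11X (0.85), FGF9 (0.84), OXTR (0.83) and PCDH20 (0.83) over the 19 arrays, among 23158 genes whose probe rose above background on all arrays of 1 group or more. The arrays share slides and the array's scaling, so r is given as a description. RAB3B encodes a small GTPase of vesicle release, FGF9 a growth factor, OXTR the oxytocin receptor, and PCDH11X and PCDH20 protocadherins. In all 5 the mean of UT 48 h was the highest of the 8 groups, a trait that their choice by likeness to TNFRSF11B favours. For FGF9 it was -1.01 ± 0.0048 (SD, n = 2) against -2.50 ± 0.35 in vit C-treated cells at 48 h, and for PCDH20 1.77 ± 0.19 against 0.40 ± 0.09. RAB3B and OXTR had probes that disagreed in direction at 48 h and were left out of the test there. Among the other members r to TNFRSF11B was 0.57 for CTSK, 0.53 for SPP1, 0.30 for OSCAR, 0.25 for ATP6V0D2, -0.04 for TNFRSF11A, -0.18 for ACP5 and -0.25 for NFATC1.

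TNFRSF11A, the receptor RANK, was near background throughout, with 7 of 19 arrays well above it. UT arrays read -4.25 and -4.60 at 8 h and -4.74, -4.12 and -3.76 at 24 h, against -4.79, -5.09 and -4.64, and -6.02 and -5.28, in vit C-treated cells. Every vit C-treated array lay below every UT array at both times, by a mean of -0.42 ± 0.41 (SE) at 8 h and -1.45 ± 0.41 at 24 h. With signals floored at 20 intensity units these differences were -0.13 and -0.38, and with normexp 0.05 and -0.54. At 48 h the difference was -1.76 ± 0.45, but no array of either group was well above background, so no fold is given. With the same floor that difference was 0. At 96 h it was -0.61 ± 0.41 with overlapping arrays.

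NFATC1, the transcription factor at the head of the osteoclast programme, was well above background on all 19 arrays and read lower at late than at early times in both arms. Its brighter probe read 1.85 and 1.92 in UT cells at 8 h, and 0.96, 0.54 and 1.09 at 96 h. In vit C-treated cells it read 1.35, 1.35 and 1.49 at 8 h and 0.84 and 0.77 at 96 h. The vit C-treated arrays lay below all UT arrays at 8 h (-0.49 ± 0.20, SE) and at 48 h (-0.38 ± 0.22), and overlapped them at 24 h (-0.29 ± 0.20) and 96 h (-0.06 ± 0.20).

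The dimmer NFATC1 probe spanned a wider range in UT cells, from 1.24 and 1.02 at 8 h to -0.997, -0.45 and -1.93 at 96 h. The difference of UT 96 h from UT 8 h was -2.26 ± 0.32 (SE) on this probe and -1.02 ± 0.20 on the brighter one. The vit C-treated arrays ended near the UT arrays on it, at -1.43 and -1.11. Between both probes r was 0.71 over the 19 arrays.

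For NFATC1 the RefSeq table of GRCh38.p14 holds 2 start sites, and since its probes read different transcripts the 250 bases before each are shown, with matches to the NFAT core letters GGAAA, read on both strands, in capitals.
NFATC1, chr18:79395680-79395929, plus strand: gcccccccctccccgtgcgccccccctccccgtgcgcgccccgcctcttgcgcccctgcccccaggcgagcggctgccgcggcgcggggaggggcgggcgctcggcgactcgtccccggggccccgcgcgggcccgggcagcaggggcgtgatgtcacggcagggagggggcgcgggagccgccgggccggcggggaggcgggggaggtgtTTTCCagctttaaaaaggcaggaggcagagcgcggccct
NFATC1, chr18:79400049-79400298, plus strand: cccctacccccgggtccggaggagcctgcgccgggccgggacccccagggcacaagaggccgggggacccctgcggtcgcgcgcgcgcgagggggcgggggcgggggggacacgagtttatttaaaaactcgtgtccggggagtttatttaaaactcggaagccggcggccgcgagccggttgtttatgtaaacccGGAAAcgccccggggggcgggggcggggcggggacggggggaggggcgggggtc

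Each of these windows held 1 match, and 55.6% of 35116 promoter windows of the same length held at least 1, so a match says little about a gene. Neither window held the AP-1 letters TGANTCA (6.57% of windows do) or the E-box letters CACGTG (6.34%) or CATGTG (9.42%). Of the members, TNFRSF11A, ACP5 and SPP1 also have a window in the table. No window of TNFRSF11A or SPP1 held a match to these motifs. Of the 4 ACP5 windows, 2 held 1 GGAAA match each, and 1 held a match to each of the E-boxes.

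OSCAR, an immunoglobulin-like receptor that co-stimulates osteoclast precursors through the FcR gamma chain, had its lowest level at 8 h in both arms on its brighter probe. UT arrays read -0.32 and -0.16 at 8 h, 0.28, 0.38 and 0.47 at 24 h, 1.42 and 1.29 at 48 h, and 2.06, 1.24 and 0.56 at 96 h. Vit C-treated arrays read 0.17, 0.15 and 0.08, then 0.70 and 0.87, then 2.16 and 2.13, then 0.89 and 1.04. Up to 48 h every vit C-treated array was above every UT array of its time, and the differences were 0.37 ± 0.30 (SE), 0.41 ± 0.30 and 0.79 ± 0.33. With the slide as a fixed term they were 1.53, 1.57 and 1.97, and with the mean of both probes -0.16, -0.14 and 0.58. The slide term rests on the UT 96 h arrays, which for OSCAR read 2.06 on 1 slide and 1.24 and 0.56 on another. At 96 h the difference was -0.33 ± 0.30 and the vit C-treated arrays lay within the wide range of the UT arrays.

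The dimmer OSCAR probe went the other way at early times. Its difference was -0.70 ± 0.35 (SE) at 8 h and -0.68 ± 0.35 at 24 h, with every vit C-treated array below every UT array, and 0.36 ± 0.39 at 48 h. Because the pair disagreed in direction, OSCAR was left out of the counts of calls at 8 h and 24 h. Between both probes r was 0.70 over the 19 arrays.

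**Figure D2:**
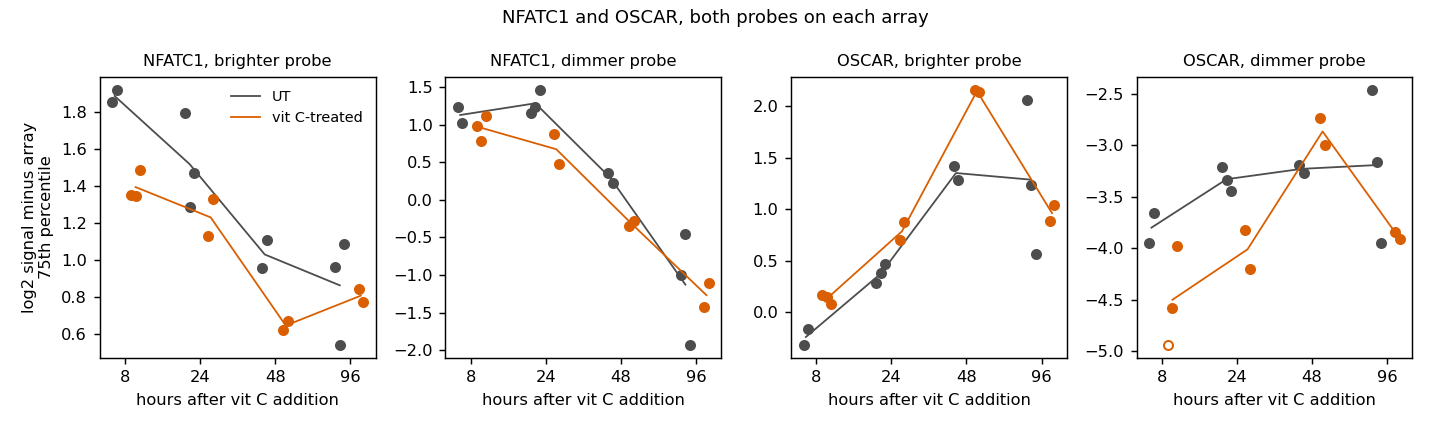
Normalized log2 signal (vertical axis, log2 signal minus the 75th percentile of the array) of both NFATC1 probes and both OSCAR probes against hours after vit C addition, 1 point per array (open where not well above background) and lines through group means. The dimmer NFATC1 probe falls to between -1.93 and -0.45 in UT cells at 96 h, and at 8 h the arms stand in opposite order on the OSCAR probes.

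ACP5, the tartrate-resistant acid phosphatase used as a stain for osteoclasts, had its lowest mean in UT cells and its highest in vit C-treated cells at 96 h. UT arrays read -1.81 and -1.36 at 8 h, -1.46, -1.76 and -1.50 at 24 h, -1.98 and -1.62 at 48 h, and -1.89, -2.02 and -2.07 at 96 h. Vit C-treated arrays read -1.62, -1.54 and -1.42 at 8 h, -1.29 and -1.17 at 24 h, -1.51 and -0.97 at 48 h, and -0.44 on both arrays at 96 h. The arms overlapped at 8 h and not afterwards, and vit C 96 h was above all other groups. The differences were 0.05 ± 0.21 (SE), 0.34 ± 0.21, 0.56 ± 0.23 and 1.56 ± 0.21 in order of time, the last one 2.94-fold.

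CTSK, cathepsin K, the protease that degrades bone collagen, had its lowest level at 8 h in both arms. UT arrays read 1.36 and 1.64 at 8 h, 1.65, 1.89 and 1.63 at 24 h, 2.69 and 2.78 at 48 h, and 2.39, 2.23 and 2.97 at 96 h. Vit C-treated arrays read 1.13, 1.35 and 1.17, then 1.68 and 1.57, then 2.86 and 2.79, then 3.65 and 3.52. The vit C-treated arrays were just below the UT arrays at 8 h (-0.28 ± 0.21, SE), mixed with them at 24 h (-0.09 ± 0.21), just above them at 48 h (0.09 ± 0.23) and clear of them at 96 h (1.06 ± 0.21, 2.08-fold). In UT cells alone the level at 96 h was 1.03 ± 0.21 above that at 8 h.

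ATP6V0D2, a subunit of the vacuolar proton pump needed for osteoclast fusion and acid secretion, was well above background on 4 of 19 arrays by its brighter probe. UT 96 h arrays read -4.61, -4.17 and -3.74, the highest group, and vit C 96 h arrays -6.14 and -5.12, a difference of -1.45 ± 0.42 (SE). On UT 96 h 2 of 3 arrays were well above background and on vit C 96 h 1 of 2. At 8, 24 and 48 h the differences were 0.13, -0.05 and 0.29 with overlapping arrays, most of them not well above background. The dimmer probe read 1.57 ± 0.78 (SE) and 1.71 ± 0.85 at 8 and 48 h, with every vit C-treated array above every UT array, and -0.54 ± 0.78 at 24 h. No array of those times was well above background on it. At 96 h it read -2.07 ± 0.78 with overlapping arrays. With signals floored at 20 intensity units the difference at 96 h was -0.37.

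SPP1, osteopontin, was lower in vit C-treated than in UT cells from 24 h on. UT arrays read 6.98 and 7.12 at 8 h, 7.87, 7.40 and 7.44 at 24 h, 7.69 and 7.92 at 48 h, and 6.82, 6.58 and 7.69 at 96 h. Vit C-treated arrays read 6.99, 7.04 and 6.63, then 6.30 and 6.82, then 6.47 and 6.31, then 6.57 and 6.08. UT cells had their highest mean at 48 h and vit C-treated cells at 8 h, and from 24 h on no vit C-treated array reached any UT array of its time, at 96 h only just. The differences were -0.17 ± 0.30 (SE), -1.01 ± 0.30, -1.42 ± 0.33 (2.67-fold) and -0.70 ± 0.30.

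**Figure D3:**
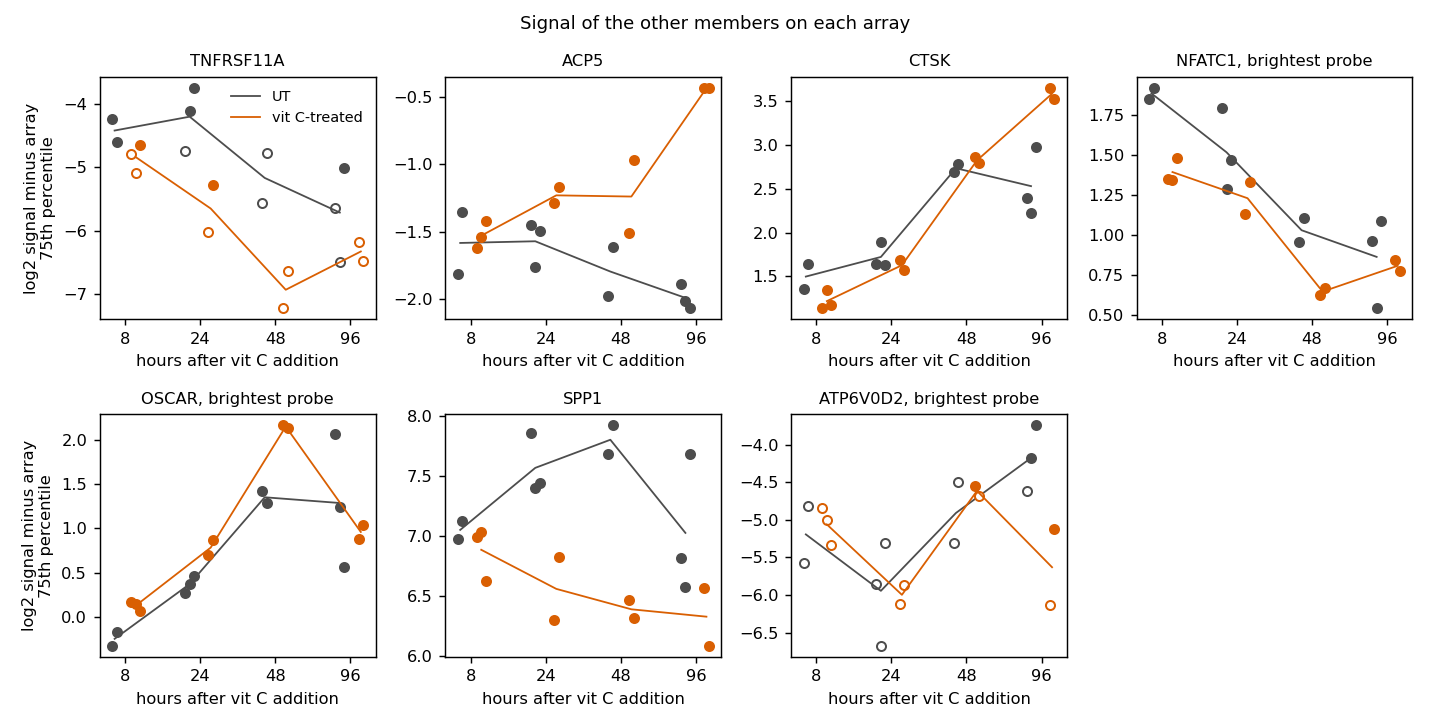
Normalized log2 signal (vertical axis, log2 signal minus the 75th percentile of the array) of the other 7 genes, each on its own scale, against hours after vit C addition. Points are arrays, open where not well above background, and lines join group means: ACP5 and CTSK part upwards at 96 h in vit C-treated cells, SPP1 parts downwards from 24 h, and TNFRSF11A and ATP6V0D2 are mostly open points.

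Set beside all genes, the members were read by 1 rule: a gene was called where a probe reached a log2 difference of 1 in either direction with a q, the limma p adjusted over all genes tested by Benjamini and Hochberg, no higher than 0.05. No member was called at 8 h, where 0.553% of all genes were, or at 24 h, where 1.67% were. At an unadjusted p of at most 0.05, whatever the fold, 1 member passed at 8 h and 3 at 24 h, against 3681 of 25130 and 5496 of 26108 genes. The methods' t-test called no member at either time, and how many of all genes it called was not counted. At 48 h TNFRSF11B, TNFRSF11A and SPP1 were called lower, against 3.64% of all genes called in either direction. At 96 h ACP5 and CTSK were called higher and ATP6V0D2 lower, against 12.8% of all genes. Of those genes 21.4% were higher, a share that quantile normalization put at 56% of a smaller number of calls. The members were chosen on these same contrasts, so nothing is read from those counts.

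By the brightest probe, groups did not overlap for 4, 5, 7 and 4 of the 8 members, in order of time. Without OSCAR, whose dimmer probe parted in the other direction, it was 3 of 7 at 8 h and 4 of 7 at 24 h. Over all genes, by their brightest probe, groups did not overlap for 38.9%, 30.3%, 50.7% and 36.9%. The median difference of the 8 members was -0.22, -0.19, -0.15 and -0.19 at the 4 times, and that of all genes -0.05, -0.13, -0.01 and -0.15. In UT cells, 96 h against 8 h, CTSK, OSCAR and ATP6V0D2 were called higher and TNFRSF11A and NFATC1 lower, with 16.1% of all genes called. ATP6V0D2 was called there by its dimmer probe, at least 1.57-fold higher by the group means. On that probe UT 96 h replicate 1, which shared the slide of the UT 8 h arrays, read -6.84 and was not well above background. UT 96 h replicates 2 and 3, on another slide, read -2.81 and -4.08. NFATC1 and OSCAR alone were called with the slide as a fixed term, with normexp and without UT 8 h replicate 1, and the methods' t-test called no member. CTSK was lost without UT 96 h replicate 3, TNFRSF11A without UT 8 h replicate 2, UT 96 h replicate 1 or UT 96 h replicate 2, and ATP6V0D2 without UT 8 h replicate 2, UT 96 h replicate 2 or UT 96 h replicate 3. CTSK was also lost with quantile normalization, the percentile over detected probes and the replicate block. TNFRSF11A was lost with quantile normalization, the floor and without vit C 8 h replicate 1. ATP6V0D2 was lost with the floor, dim probes left out and the replicate block. The comparison of UT 96 h with UT 8 h shares its UT arrays with those of vit C at 8 h and at 96 h.

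**Figure D4:**
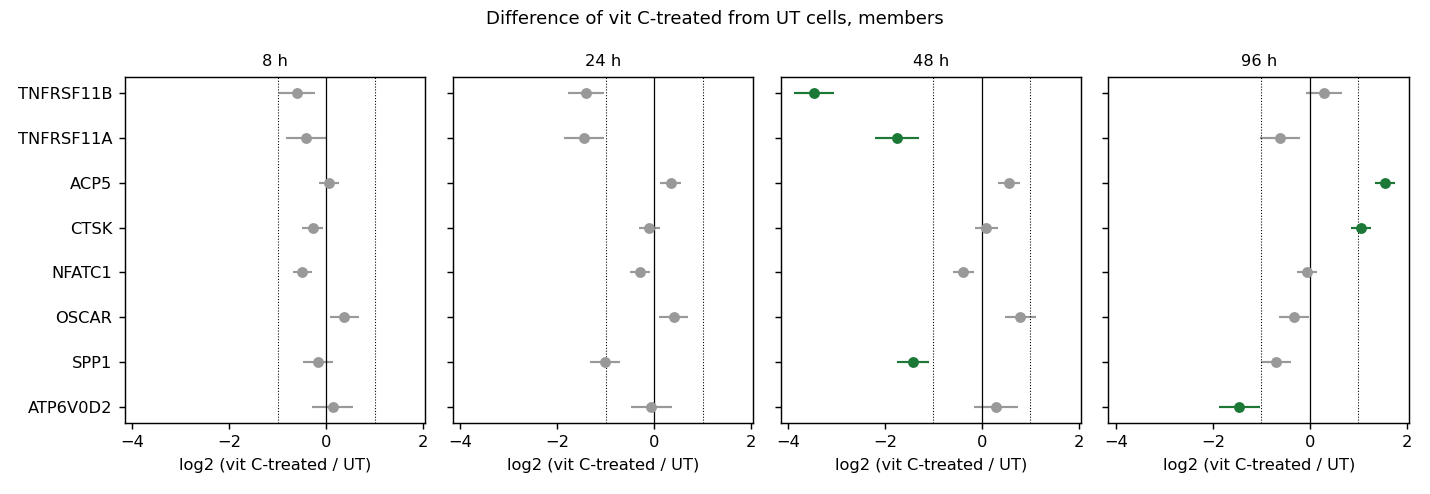
Difference of vit C-treated from UT cells (horizontal axis, log2) for each gene by its brightest probe at 8, 24, 48 and 96 h, with bars of 1 SE of the fit. Genes called by the threshold are green, TNFRSF11A at 48 h among them though no array was well above background, and dotted lines mark a log2 difference of 1 in either direction: at 48 h TNFRSF11B stands at -3.46, and at 96 h ACP5 and CTSK stand at 1.56 and 1.06.

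Calls of the members depended on single arrays. At 24 h TNFRSF11B, TNFRSF11A and SPP1 were called without UT 96 h replicate 3, an array of another time that enters through the shared variance. At 48 h TNFRSF11B alone was called without UT replicate 1, without UT replicate 2, without vit C replicate 1 and without vit C replicate 2. At 96 h ACP5 was called with any array of that time left out. CTSK was lost without UT replicate 1, without UT replicate 2 and without either vit C replicate, ATP6V0D2 was lost without UT replicate 2, UT replicate 3 and either vit C replicate, and OSCAR was called without UT replicate 3. With the slide as a fixed term no member was called at 48 h, and by the methods' t-test none was at 48 h or at 96 h.

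Other genes of the pathway were taken from 12 lists of 172 genes that leave out the members, and 164 of these were on the array. At 8 h 1 of 137 listed genes tested was called, against 0.553% of all genes: ID3, an inhibitor of helix-loop-helix factors, at 1.22 ± 0.20 (SE, limma q = 0.0203). That call was kept in 10 of 17 alternatives, and it was lost without UT replicate 2, vit C replicate 1 or vit C replicate 2. At 24 h 1 of 140 was called, against 1.67% of all genes: TNFRSF21, a death receptor of the TNF receptor family, on its dimmer probe at -1.53 ± 0.29 (q = 0.018). Its brighter probe read -0.65 (q = 0.152) and did not pass, and the call was kept in 2 of 5 fits with an array of that time left out. With the same fold and an unadjusted p of at most 0.05, 3 and 8 of them passed, against 1771 of 25130 and 2242 of 26108 genes, and the methods' t-test called none at either time.

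At 48 h 11 of 142 listed genes tested were called, 3 higher and 8 lower, against 3.64% of all genes. The counts ran from 4 to 6 with an array of that time left out. The fusion gene C20orf123, now named OCSTAMP, was lower by -2.005 ± 0.33 (SE, limma q = 0.00521), CA2, the carbonic anhydrase that supplies protons for resorption, by -1.97 ± 0.42 (q = 0.0192), and ATP6V1C2, another pump subunit, by -2.27 ± 0.26 (q = 0.000587), while the dimmer ATP6V1C2 probe read -0.49 (q = 0.57) and did not pass. TREM2, a co-receptor that signals through the adaptor TYROBP, was lower by -1.17 ± 0.22 (q = 0.0117), and the cathepsin CTSH by -1.11 ± 0.18 (q = 0.0053). The TNF receptor genes TNFRSF9 (-1.58) and TNFRSF21 (-1.001) were also called lower, the second on its brighter probe while the dimmer one read -0.12. These calls were kept in 8 and 4 of 16 alternatives and in none of the 4 with a 48 h array left out. Higher were the nuclear receptor PPARG at 1.11 ± 0.26 (q = 0.0282) and the metalloprotease ADAM12 at 1.58 ± 0.39 (q = 0.0402). The calls of ADAM12 and CA2 were lost with any 48 h array left out, and that of PPARG was kept in 1 of those 4 fits. CSTA, a cystatin, and VAV3, an exchange factor downstream of RANK, were called by their dimmer probes at 1.22 and -1.05, with 0.74 and -0.47 on the brighter ones, which did not pass. VAV3 was kept in 1 of 4 fits with a 48 h array left out and CSTA in all 4.

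At 96 h 14 of 137 were called, 2 higher and 12 lower, against 12.8% of all genes. The count was 5 with a floor on the signals, 3 with either vit C array left out and 27 without UT replicate 3. Over all genes 3363 were called in the main fit and 767 with the floor, and with an array left out they were not counted. Of the 14 listed genes, 10 had a called probe that was detected on all arrays of a group. C20orf123 was lower by -3.58 ± 0.30 (SE, limma q = 1.74e-05). On vit C 96 h 1 of 2 arrays was well above background, and the difference ranged from -4.18 without vit C replicate 1 to -1.82 with normexp. Lower too were ID1 by -2.05 ± 0.20 (q = 6.88e-05) and the calcineurin regulator RCAN2 by -1.97 ± 0.24 (q = 0.000337). CA2 (-1.33), CTSW (-1.45), EOMES (-1.50) and TNFRSF10D (-1.02) were called lower as well, and of 16 alternatives the calls were kept in 8, 13, 12 and 2. The difference of TNFRSF10D ranged from -1.24 to -0.26 over them. IRF8, a repressor of osteoclast formation, was higher by 1.27 ± 0.34 (q = 0.0349), a call kept in 7 of 16 alternatives and in 1 of 5 with an array left out. Of the listed osteoclast repressors IRF8 was the 1 called higher, and ID1 and EOMES were the 2 called lower. LGMN, legumain, was higher by at least 1.87-fold, though its difference turned to -0.08 with normexp background correction. CKB was called lower on its dimmer probe only (-1.21), while its brighter one had an SD of 2.71 (n = 3) among UT arrays and turned sign without UT replicate 1 or without UT replicate 2. The median difference of the 164 genes was -0.29 at 48 h and -0.21 at 96 h.

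**Figure D5:**
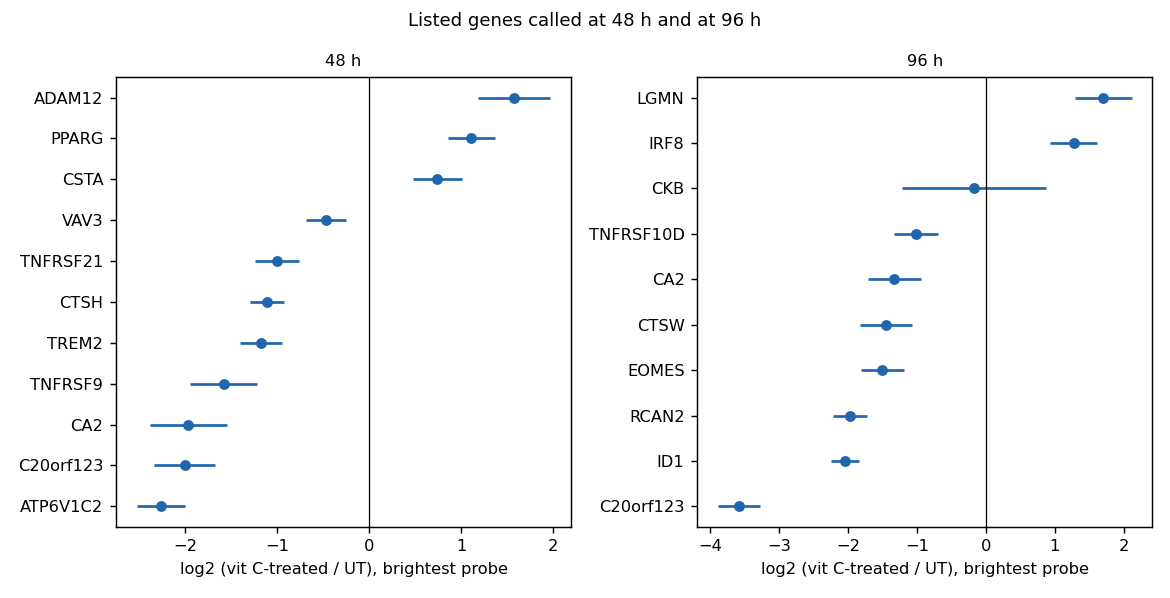
Difference of vit C-treated from UT cells (horizontal axis, log2, brightest probe, bars of 1 SE) for the listed genes called by any probe that was detected on all arrays of a group, 11 at 48 h on the left and 10 at 96 h on the right. C20orf123 and CA2 lie left of 0 in both panels, and the bar of CKB spans 0.

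Averaged over the 4 times, 4 listed genes were called, with 3.48% of all genes: ADAM12 higher at 1.02 ± 0.18 (SE, limma q = 0.00254), and C20orf123 (-1.61) and CTSW lower, CTSW on its dimmer probe only (-1.01, with -0.96 on the brighter one). The fourth, NGFR, named after its values were seen, was clearly above background on only 1 array of 19. An F test for effects that differ over time passed for 6 of the 164 (1.05% of all genes). In UT cells, 96 h against 8 h, 41 of 149 were called, 12 higher and 29 lower, against 16.1% of all genes, of which 2360 were higher and 1900 lower. They were led by C20orf123 at -5.48 ± 0.30 (q = 3.89e-08), the tetraspanin CD9 at -3.42 and the death receptor TNFRSF25 at -3.42. With the slide as a fixed term 1 listed gene was called at 48 h and 20 in UT cells over time, and the methods' t-test called none at 48 h or at 96 h.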

How the data were processed

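Per the file headers the authors extracted spot intensities with Agilent Feature Extraction 10.5.1.1, with spatial and multiplicative detrending on and local background correction off. The log2 values the authors deposited in the series matrix are the same signals shifted to the 75th percentile of each array, and they served as an alternative. Here spots of a probe were averaged as log2 of the processed intensity, from which the array's 75th percentile was taken off. No spot was saturated. The 19 arrays were fitted in limma 3.58.1 (R 4.3.3, lmFit and eBayes, 2-sided) with a mean for each of 8 groups. Following the methods, a gene was dropped before adjustment if its probes disagreed in direction. A gene's value is that of its brightest probe. Where 1 group had no array above background, its fold is a bound. The number of arrays limits the precision. Figures were drawn with matplotlib 3.10.9.

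The members, the pathway and marker lists and the tests were chosen with earlier results of these data known. Of the pathway lists, the called genes are named that had a called probe detected on all arrays of a compared group, and for UT cells over time the leading ones. NGFR, called in the average, is named outside this rule. Genes named for likeness are the 5 with the highest r. Replicates are separate flasks. The replicate numbers did not pair samples (correlations of deviations from -0.11 to 0.09). The alternatives were the methods' t-test, quantile normalization, a floor of 20, the percentile over detected probes, normexp (offset 50), dim probes left out, gene means of probes, opposing probes kept, the slide as a random or a fixed block, a replicate block, the series matrix values and each array left out. Promoter and transcript sequences are RefSeq's and the array's.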

Additional observations from a re-analysis of the deposited data

Results flagged for a closer look

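CTSK was flagged because its difference had opposite signs at different times with no overlap between arrays: it was -0.281 on the log2 scale at 8 h, 0.0897 at 48 h and 1.06 at 96 h. The SE was 0.21, 0.23 and 0.21 at these times. Groups did not overlap for 38.9%, 50.7% and 36.9% of all genes at the same times. How many of all genes had opposite signs in this way was not counted. For CTSK, chosen on its levels, the difference between times was not tested. The sign at 48 h was turned by normexp background correction (-0.05) and with the slide as a fixed term (-0.09).

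Of the listed genes, 6 had effects that differed between the 4 time points by limma's F test over all genes. The q was 0.00477 for C20orf123, 0.0104 for ID3, 0.0124 for ID1, 0.0256 for ATP6V1C2, 0.0293 for TNFRSF8 and 0.0485 for RCAN2. With a replicate block 3 genes passed, and with an array left out between 1 and 13. The 96 h comparison enters this test, and there treatment and slide cannot be told apart. At the other times treatment went with slide as well.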

How the results depend on the processing

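The values of TNFRSF11B at 48 h kept their sign in every alternative. With normexp background correction its differences were -0.078, -0.69, -2.16 and -0.25 in order of time, and the mean of its probes gave -3.16 at 48 h. Leaving out 1 array of the same time gave ranges of -0.98 to -0.22, -1.79 to -1.01, -3.58 to -3.35 and 0.18 to 0.47. Members called numbered 0 by the methods' t-test at 48 h and at 96 h, 0 with the slide as a fixed block at 48 h, and 1 at 24 h with dim probes left out. With 1 array of the same time left out they numbered 0 to 1 at 24 h, 1 at 48 h and between 1 and 3 at 96 h. Without UT 96 h replicate 3, which enters the other times through the shared variance, they numbered 3 at 24 h and 3 at 48 h. At 48 h TNFRSF11A was lost with normexp, the floor, opposing probes kept and the slide as a random block, and SPP1 with the replicate block. At 96 h ATP6V0D2 was lost with quantile normalization, the percentile over detected probes, the floor, dim probes left out and the replicate block. All genes called were counted only in the main fit and under the scalings, so the other counts stand without that share. Of 378 values of the other members under the alternatives, 352 kept their sign.

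Listed genes called at 8 h numbered 0 by the methods' t-test, with normexp, with the replicate block and with the slide as a fixed block. At 24 h they numbered 0 by the methods' t-test and with the slide as a fixed block, 3 with quantile normalization and with opposing probes kept, 2 with the floor, with gene means and with the replicate block, and 5 with dim probes left out. At 48 h they numbered 0, 6 and 1 by the methods' t-test, with normexp and with the slide as a fixed block. At 96 h they numbered 0 by the methods' t-test, 8 with quantile normalization, 9 with normexp, 8 with the percentile over detected probes, 5 with the floor, 9 with dim probes left out and 7 with the replicate block. For the average they numbered 2 with quantile normalization, with the percentile over detected probes, with gene means and with the slide as a random block, and 1 with normexp and with the floor. In UT cells over time they numbered 3, 26 and 20 by the methods' t-test, with normexp and with the slide as a fixed block. In the F test the replicate block left 3. With 1 array of the compared time left out the ranges were 0 to 1, 0 to 3, 4 to 6 and 3 to 27 at the 4 times, with 1 to 5 for the average, 29 to 46 in UT cells over time and 1 to 13 in the F test. The 27 at 96 h came without UT replicate 3, and without that array 4 were called at 24 h and 15 at 48 h. How many of all genes were called without it was not counted. At 96 h all genes called numbered 3363 in the main fit, 1000 with quantile normalization and 829 with normexp. They numbered 1448 with the percentile over detected probes and 767 with the floor. The replicate numbers share only a number, and the paired fit kept TNFRSF11B at 48 h at -3.46 and left 2 members called at 48 h and 2 at 96 h.

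Of 1050 values of named listed genes, 788 stayed called, 256 kept their sign without passing and 6 turned: LGMN at 96 h (-0.08006 with normexp), CKB at 96 h (0.28 without UT replicate 1, 0.90 without UT replicate 2, in a range from -1.70 to 0.90 with 1 array left out) and CKB in UT cells over time (0.00994 with the slide as a fixed block, 0.08 without UT 8 h replicate 2, 0.63 without UT 96 h replicate 3, in a range from -1.97 to 0.63). The median of all genes at 96 h was -0.15, and -0.40 with normexp and -0.04 with quantile normalization. The share of higher genes among all called was 59.7%, 49.9% and 21.4% at 8, 24 and 96 h, against 91.9% with normexp at 8 h, 65.6% with quantile normalization at 24 h and 61.8% with the floor at 96 h. The slide could not be fitted as a fixed block at 96 h. TNFRSF11A and ATP6V0D2 lie near background, and their signal limits what can be said. The cause of these changes was not tested.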
